A study of Danio rerio with 12 samples.

Results

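The autophagy machinery genes are a set named for the pathway, and most of their products build the autophagosome, load it with cargo or deliver it to the lysosome. They were taken by name, by a rule that names genes and uses no measured value: every gene whose zebrafish symbol, case ignored, matched atg, ulk or wipi followed by a digit, began with map1lc3 or gabarap, or was becn1, sqstm1, rb1cc1, optn, nbr1, tfeb, lamp1 or lamp2, with or without a paralog letter. The rule found 43 of the 32520 gene IDs in the tables. Of these 43, 42 had at least 10 normalised counts in at least 6 libraries and were tested, among 20114 tested genes in all. The exception was map1lc3c (ENSDARG00000100528), an LC3 gene with 1 to 6 reads in each GR-mutant library and 1 to 6 reads in each wild-type library.

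The RNA came from single brains of adult male zebrafish aged 22 months, dissected with the olfactory bulbs and pituitary. The 6 GR-mutant fish were homozygous for gr s357 (gr s357/s357), a missense allele of nr3c1, the gene of the glucocorticoid receptor (GR), and the 6 wild-type fish were gr +/+. By the study's methods, both genotypes descended from in-crossed heterozygotes and were siblings. Adults of each genotype were kept in tanks of their own, so that genotype and tank cannot be told apart. The sample titles read WTTL for wild-type and GRMut for GR-mutant libraries, and no source used here explains the letters TL. The libraries were made from polyadenylated RNA and held 24407683 to 37548901 reads in genes. Mitochondrial genes took 10.1% of the reads in wild-type 1 and 6.07% to 7.81% in the others. The missense allele leaves the transcript in place, so NR3C1 does not check the labels: it had 4670 to 4955 normalised counts in GR-mutant brains and 4107 to 4567 in wild-type brains. NR3C1 was thus higher in GR-mutant brains without overlap, by 0.15 on the log2 scale (SE 0.04, limma adjusted p = 0.0160). In bulk tissue, fewer cells of a type and less RNA per cell cannot be told apart.

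Macroautophagy begins when the Ulk1 and Ulk2 kinase complex, held together by Atg13, Atg101 and the scaffold Rb1cc1 (Fip200), is released from inhibition by mTORC1. Beclin 1 and Atg14 then direct the class III PI3 kinase to the nascent membrane, which grows with lipid from Atg9 vesicles and the Atg2 and Wipi proteins. A pair of ubiquitin-like conjugation systems that share the activating enzyme Atg7 attaches Atg8 proteins (LC3 and Gabarap) to the membrane, and receptors such as Sqstm1 (p62) tether cargo to them. Neurons depend on the pathway to clear proteins and organelles, and the transcription factor Tfeb drives many of its genes together with those of the lysosome.

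Most autophagy machinery transcripts did not pass the test between the genotypes. By limma with Benjamini-Hochberg adjustment over all 20114 tested genes, 8 of the 42 passed at an adjusted p of 0.05, a share of 19.0% against 17.5% of all tested genes. LAMP2 and atg2b were higher in GR-mutant brains, where 7.59% of all tested genes were higher. ULK2, ULK4, GABARAPL2, ATG7, ATG13 and gabarapa were lower, where 9.92% of all tested genes were lower. Across the 42 genes 21 fold changes were positive and 21 negative, with a median of 0.01 on the log2 scale against 0.01 for all tested genes. The libraries of the genotypes did not overlap for 6 of the 42, against 8.27% of all tested genes. All fold changes are differences of log2(normalised count + 1), GR-mutant minus wild-type, with the standard error (SE) of the fit, n = 6 each.

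The balance of higher and lower calls moved with the scaling of the libraries, although none of the 8 called genes changed sign. When every library was scaled to the same total instead of by the median of ratios, 8 of the 42 genes were higher (ATG14, ATG9A, LAMP2, RB1CC1, WIPI1, atg2b, nbr1a and nbr1b) and 2 were lower (ULK2 and ULK4), beside 15% of all tested genes higher and 6.52% lower. The normalised totals of the GR-mutant libraries all lay below those of the wild-type libraries, and equal totals moved the median of all tested genes to 0.09 on the log2 scale. LAMP2, ULK2, ULK4 and atg2b passed under both scalings, in the same direction. On recovered reads, edgeR called 8 of the 42 genes (2 higher and 6 lower), against 17.2% of all tested genes (7.58% higher and 9.62% lower). DESeq2 called 11 (3 higher and 8 lower), against 21.9% of all tested genes (9.73% higher and 12.2% lower). Beyond the limma calls, DESeq2 added RB1CC1 as higher and ATG12 and ULK3 as lower.

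**Figure D1:**
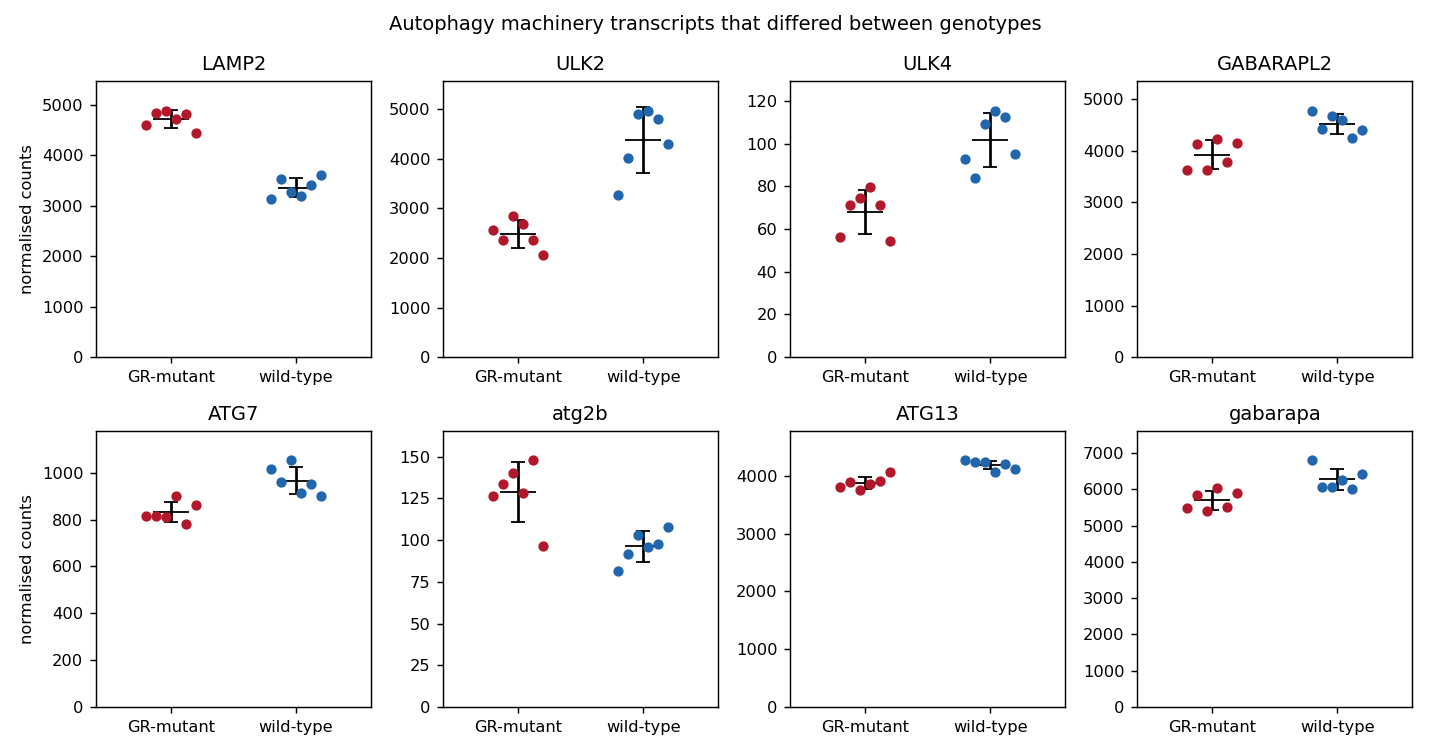
Normalised counts of the 8 autophagy machinery transcripts that passed the test, in each of 6 GR-mutant (left in each panel) and 6 wild-type brains (right), with points for libraries and bars for the mean and SD; each axis starts at 0. LAMP2 and ULK2 show the widest gaps between genotypes, while in atg2b and gabarapa the points of the genotypes overlap.

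Of the 6 initiation genes 2 fell, ULK2 and ATG13 (33.3%, against 17.5% of all tested genes), and the other 4 did not pass. ULK2 (ENSDARG00000097205), 1 of the kinases that start autophagosome formation, had 2065 normalised counts in the lowest, 2471 at the median and 2851 in the highest GR-mutant brain, against 3269, 4561 and 4973 in wild-type brains. Every GR-mutant brain lay below every wild-type brain, and the lowest wild-type value was that of wild-type 1. ULK2 fell by 0.81 on the log2 scale (SE 0.10, limma adjusted p = 0.000197), and it passed with any 1 of the 12 libraries left out and under all 10 other settings.

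The kinase paralogs of ULK2 did not pass. ULK1 (ENSDARG00000074481) had 1236, 1510 and 1828 normalised counts (lowest, median and highest) in GR-mutant brains, against 1145, 1349 and 1604 in wild-type brains (limma adjusted p = 0.306). The second ULK1 copy, ulk1a (ENSDARG00000062518), had 252, 316 and 420 in GR-mutant brains, against 204, 270 and 392 in wild-type brains (limma adjusted p = 0.433). The ranges of the genotypes overlapped for both genes, with 2 GR-mutant brains above every wild-type brain for ULK1 and 1 for ulk1a. Within each library, the normalised count of ULK2 divided by that of ULK1 was 1.5 to 1.87 in GR-mutant brains, against 2.78 to 4.34 in wild-type brains, with no overlap. The ratio of ULK2 to ulk1a was 5.65 to 10.7 in GR-mutant brains and 10.2 to 21.1 in wild-type brains, which overlapped. These ratios were formed after the values were seen and are a description with no test; they compare genotypes and do not rank genes by abundance.

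ATG13 (ENSDARG00000036040), the regulatory subunit that mTORC1 phosphorylates along with Ulk1, had 3754, 3871 and 4057 normalised counts in GR-mutant brains, against 4068, 4214 and 4266 in wild-type brains. The genotypes did not overlap, but the gap between them was narrow, and ATG13 varied little within a genotype, with a coefficient of variation of 2.67% in GR-mutant and 1.82% in wild-type brains. It fell by 0.11 on the log2 scale (SE 0.03, limma adjusted p = 0.0358). The call passed in 3 of the 12 fits that left out 1 library and under 5 of the 10 other settings. At equal totals the difference was -0.03 (limma adjusted p = 0.590), and with upper-quartile scaling the limma adjusted p was 0.0893.

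The other 2 tested subunits did not pass. The scaffold RB1CC1 (ENSDARG00000076559) had 3181, 3450 and 3720 normalised counts in GR-mutant brains, against 2965, 3191 and 3304 in wild-type brains (difference 0.13 on the log2 scale, limma adjusted p = 0.0809). For RB1CC1, 5 of the 6 GR-mutant brains lay above every wild-type brain. ATG101 (ENSDARG00000043287), the partner of Atg13, had 1044 to 1221 in GR-mutant brains and 1052 to 1255 in wild-type brains (limma adjusted p = 0.609).

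ULK3 and ULK4 carry Ulk names without belonging to the initiation complex, and ULK4 is a pseudokinase. ULK4 (ENSDARG00000004176) had 54.2, 71.3 and 79.7 normalised counts in GR-mutant brains, against 84.0, 102 and 115 in wild-type brains. The 6 GR-mutant brains all lay below the 6 wild-type brains, on 62 to 90 reads in each GR-mutant library and 74 to 117 reads in each wild-type library. ULK4 fell by 0.58 on the log2 scale (SE 0.14, limma adjusted p = 0.0124) and passed with any 1 library left out. ULK3 (ENSDARG00000101661) had 272, 289 and 353 in GR-mutant brains, against 301, 368 and 445 in wild-type brains, and just missed the threshold (difference -0.29 on the log2 scale, limma adjusted p = 0.0518).

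**Figure D2:**
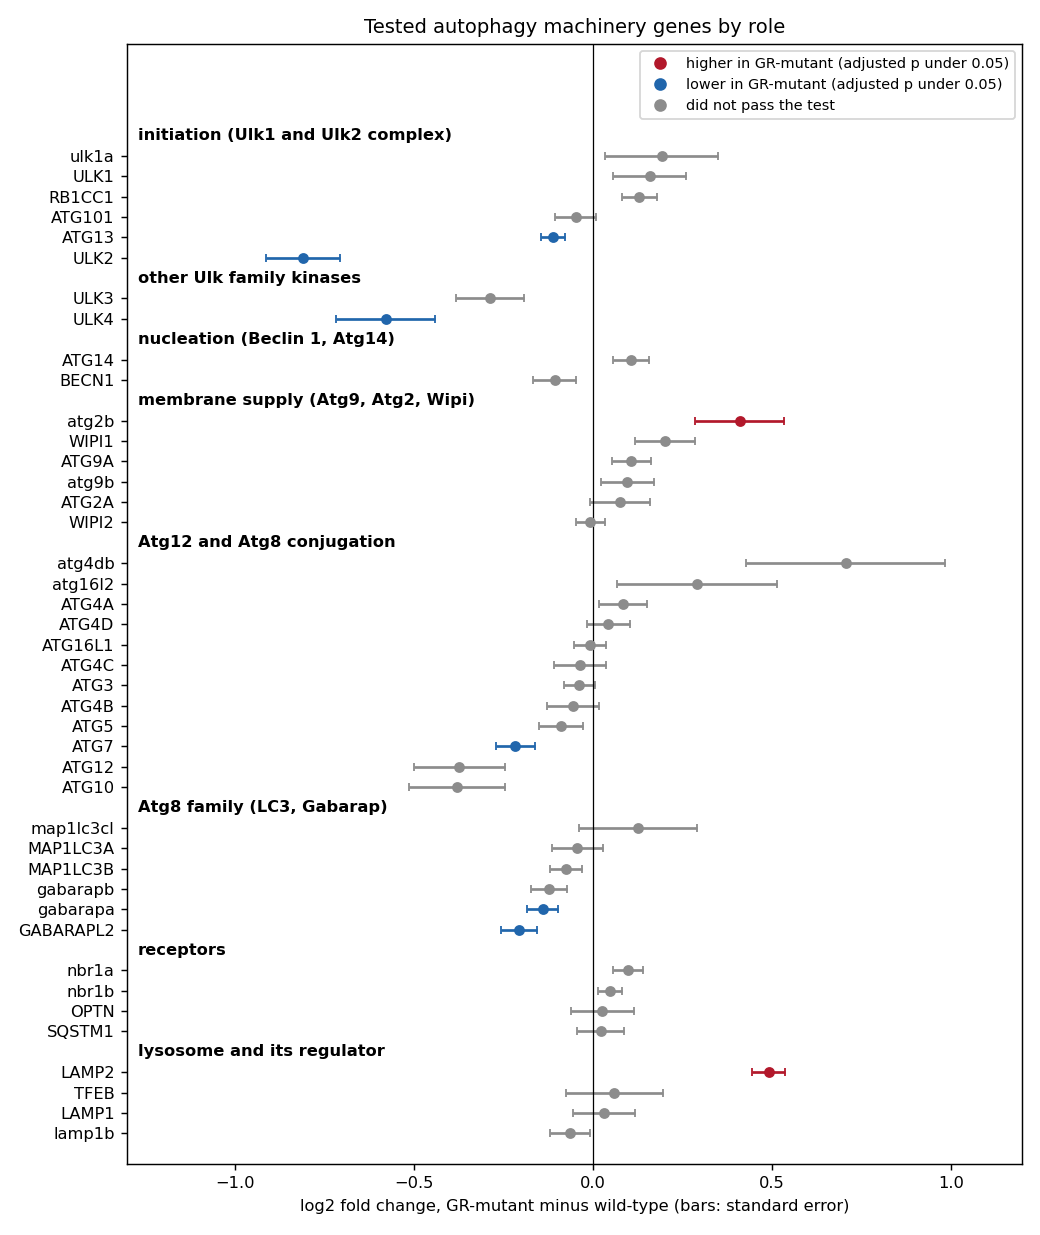
Log2 fold change, GR-mutant minus wild-type, of the 42 tested autophagy machinery transcripts, grouped by role, with points for the estimates and bars for their standard errors; red points passed higher, blue points passed lower and grey points did not pass. The 2 genes that passed higher and the 6 that passed lower are spread over 6 of the 8 role groups.

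The nucleation genes did not pass, and limma gave 0 of the 2 an unadjusted p under 0.05. BECN1 (ENSDARG00000079128), which encodes Beclin 1, had 969, 1022 and 1081 normalised counts in GR-mutant brains, against 985, 1111 and 1199 in wild-type brains (difference -0.11 on the log2 scale, limma adjusted p = 0.235). ATG14 (ENSDARG00000002670), the subunit that places the kinase at the site of autophagosome formation, had 983, 1073 and 1136 in GR-mutant brains, against 934, 1006 and 1047 in wild-type brains (difference 0.11, limma adjusted p = 0.160). The 2 estimates had opposite signs, and both sets of ranges overlapped.

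Of the 6 membrane supply genes, 5 had positive fold changes, against 51.9% of all tested genes. Only atg2b passed (16.7%, against 17.5% of all tested genes). The gene atg2b (ENSDARG00000097650), for a lipid transfer protein that bridges the endoplasmic reticulum and the growing membrane, had 96.4, 131 and 148 normalised counts in GR-mutant brains, against 81.3, 97.0 and 108 in wild-type brains. In 5 of the 6 GR-mutant brains it lay above every wild-type brain, and GR-mutant 6 fell among the wild-type values. It rose by 0.41 on the log2 scale (SE 0.12, limma adjusted p = 0.0351), but passed in only 3 of the 12 fits that left out 1 library, with adjusted p up to 0.0826. Of the 10 other settings it passed under 9, and not without the filter (limma adjusted p = 0.0546).

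The paralog ATG2A (ENSDARG00000101507) had 838, 934 and 1037 normalised counts in GR-mutant brains, against 796, 857 and 1056 in wild-type brains (limma adjusted p = 0.573). WIPI1 (ENSDARG00000040657), which binds the lipid made by the class III kinase, had 1152, 1463 and 1623 in GR-mutant brains, against 1099, 1237 and 1402 in wild-type brains (difference 0.20, limma adjusted p = 0.116). ATG9A, atg9b and WIPI2 likewise overlapped between genotypes, with limma adjusted p between 0.192 and 0.929. WIPI2 differed by -0.01 on the log2 scale and varied little, with a coefficient of variation of 2.71% in GR-mutant and 4.48% in wild-type brains.

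Among the 12 conjugation genes ATG7 alone passed (8.33%, against 17.5% of all tested genes). ATG7 (ENSDARG00000102893), the activating enzyme shared by the Atg12 and Atg8 conjugation systems, had 782, 815 and 899 normalised counts in GR-mutant brains, against 901, 957 and 1053 in wild-type brains. The highest GR-mutant brain sat just below the lowest wild-type brain. ATG7 fell by 0.22 on the log2 scale (SE 0.05, limma adjusted p = 0.0162) and passed with any 1 library left out. It passed under 8 of the 10 other settings, but not at equal totals, where the difference was -0.13 (limma adjusted p = 0.0807), or with the replicate block.

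ATG12 and ATG10 were nearest to the threshold among the other conjugation genes. ATG12 (ENSDARG00000069545), the ubiquitin-like protein joined to Atg5, had 165, 214 and 268 normalised counts in GR-mutant brains, against 225, 274 and 318 in wild-type brains (difference -0.37, limma adjusted p = 0.0572). ATG10 (ENSDARG00000104846), its conjugating enzyme, had 76.8, 104 and 119 in GR-mutant brains, against 110, 131 and 154 in wild-type brains (difference -0.38, limma adjusted p = 0.0682). ATG5, the Atg12 acceptor, and ATG3, the conjugating enzyme for Atg8 proteins, had limma adjusted p of 0.344 and 0.592. ATG16L1, which brings the Atg12-Atg5 conjugate to the membrane, differed by -0.01 (limma adjusted p = 0.931), and its relative atg16l2 by 0.29 (limma adjusted p = 0.393). The Atg4 proteases, which prime and release Atg8 proteins, had adjusted p from 0.0952 for atg4db (ENSDARG00000088145) upwards. The gene atg4db lay at 9.52 to 24.1 normalised counts in GR-mutant brains and 6.79 to 14.2 in wild-type brains, near the minimum for testing.

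Of the 6 tested Atg8 genes 2 passed (33.3%, against 17.5% of all tested genes), both lower in GR-mutant brains and both in the Gabarap branch. GABARAPL2 (ENSDARG00000027200) had 3620, 3946 and 4233 normalised counts in GR-mutant brains, against 4245, 4502 and 4774 in wild-type brains. No value overlapped, although the highest GR-mutant and the lowest wild-type brain were nearly equal. GABARAPL2 fell by 0.21 on the log2 scale (SE 0.05, limma adjusted p = 0.0150) and passed with any 1 library left out. It passed under 8 of the 10 other settings, but not at equal totals (limma adjusted p = 0.0707) or with the replicate block.

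The gene gabarapa (ENSDARG00000035557) had 5394, 5686 and 6034 normalised counts in GR-mutant brains, against 6024, 6167 and 6804 in wild-type brains. In 5 of the 6 GR-mutant brains it lay below every wild-type brain. It fell by 0.14 on the log2 scale (SE 0.04, limma adjusted p = 0.0418), but passed in 4 of the 12 fits that left out 1 library. It passed under 5 of the 10 other settings, and not at equal totals (limma adjusted p = 0.294) or with upper-quartile scaling (limma adjusted p = 0.0784). Its paralog gabarapb (ENSDARG00000052082) had 7678, 8457 and 9166 in GR-mutant brains, against 8742, 9182 and 10055 in wild-type brains (difference -0.12, limma adjusted p = 0.113), with 4 GR-mutant brains below every wild-type brain.

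In the LC3 branch no gene passed, and a difference between the branches was not tested. MAP1LC3B (ENSDARG00000101127), the family member most used to mark autophagosomes, had 5788, 6113 and 6575 normalised counts in GR-mutant brains, against 6064, 6477 and 6858 in wild-type brains (difference -0.07, limma adjusted p = 0.270). MAP1LC3A (ENSDARG00000033609) had 2524, 2874 and 3253 in GR-mutant brains, against 2705, 2827 and 3495 in wild-type brains (limma adjusted p = 0.721). The gene map1lc3cl (ENSDARG00000075727) had 82.6 to 161 in GR-mutant brains and 78.4 to 129 in wild-type brains (limma adjusted p = 0.633). Summed over the 6 tested Atg8 genes, the normalised counts were 25161 to 28830 in GR-mutant brains, against 28493 to 31260 in wild-type brains, and overlapped.

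The receptor genes did not pass by limma, edgeR or DESeq2, and limma gave 1 of the 4, nbr1a, an unadjusted p under 0.05. SQSTM1 (ENSDARG00000075014), whose protein p62 binds ubiquitinated cargo and is itself degraded by autophagy, had 2827, 3032 and 3562 normalised counts in GR-mutant brains, against 2648, 3023 and 3410 in wild-type brains (limma adjusted p = 0.846). The medians of the genotypes nearly coincided. The paralogs of NBR1, a receptor related to p62, had positive estimates: nbr1a 0.10 and nbr1b 0.05 on the log2 scale, with limma adjusted p of 0.119 and 0.356. OPTN (ENSDARG00000002663), the receptor Optineurin, differed by 0.03 (limma adjusted p = 0.862).

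LAMP2 (ENSDARG00000014914), a lysosomal membrane glycoprotein required for fusion of autophagosomes with lysosomes and, in mammals, for chaperone-mediated autophagy, had 4439, 4776 and 4888 normalised counts in GR-mutant brains, against 3130, 3349 and 3612 in wild-type brains. The 6 GR-mutant brains all lay above the 6 wild-type brains, with a wide gap between. LAMP2 rose by 0.49 on the log2 scale (SE 0.05, limma adjusted p = 9.6e-06), passed with any 1 library left out, and passed under all 10 other settings.

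The LAMP1 copies did not pass. LAMP1 (ENSDARG00000100181), the companion glycoprotein of the lysosomal membrane, had 793, 925 and 984 normalised counts in GR-mutant brains, against 792, 881 and 1102 in wild-type brains (limma adjusted p = 0.833). The other copy, lamp1b (ENSDARG00000092610), had 3601, 3895 and 4529 in GR-mutant brains, against 3919, 4141 and 4373 in wild-type brains (limma adjusted p = 0.456). Within each library, LAMP2 divided by LAMP1 was 4.84 to 5.60 in GR-mutant brains, against 3.21 to 4.03 in wild-type brains, and LAMP2 divided by lamp1b was 1.04 to 1.28 in GR-mutant brains, against 0.730 to 0.902 in wild-type brains. Neither ratio overlapped between the genotypes, as LAMP2 itself did not. Like the ULK2 ratios, these were formed after the values were seen and are a description with no test. TFEB (ENSDARG00000010794), the transcription factor of lysosomal genes, had 201, 266 and 306 in GR-mutant brains, against 208, 229 and 313 in wild-type brains (limma adjusted p = 0.797).

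LAMP2 lies near the mutated gene. The rows of the deposited tables follow gene order: of neighbouring rows matched by symbol to RefSeq, 98.8% shared a chromosome. LAMP2 stood 225 rows from NR3C1. SQSTM1 stood 96 rows from NR3C1, ATG2A 243 and map1lc3cl 402, and none of these 3 passed. Of the 492 matched genes within 402 rows of NR3C1, 491 were on its RefSeq chromosome. Within 250 rows on either side, a width set after the values were seen, 104 of 344 tested genes passed (30.2%), against 17.5% of all tested genes. Siblings that are homozygous for 1 nr3c1 allele also share the chromosome segment around it, so a linked variant and the receptor cannot be told apart for LAMP2.

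The 10 nearest tested genes in row order were read from the same fit for each of the 8 genes that passed. Among all tested genes in that fit, 7.59% were higher and 9.92% lower. Around ULK2, 1 was higher and 4 were lower, among them aldh3a2a on one side (-0.33, limma adjusted p = 0.0161) and an ID with no symbol, ENSDARG00000097996, on the other (-1.41, limma adjusted p = 0.0148). Around LAMP2, 2 were higher and 1 was lower, with si:dkey-15n5.6 on one side (0.88, limma adjusted p = 0.0291) and ATP1B4 on the other (-0.18, limma adjusted p = 0.0671). Around each of the other 6 genes, 0 or 1 of the 10 were higher and 1 or 2 were lower. No source used here states the strand setting of the counting, so shared reads of overlapping genes cannot be told apart.

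The autophagy machinery transcripts had a lower median coefficient of variation between brains than all tested genes. It was 7.91% in GR-mutant and 7.85% in wild-type brains, against 12.9% and 14.5% for all tested genes in those genotypes. Abundance was not matched in this comparison, and counting error is larger in low genes.

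**Figure D3:**
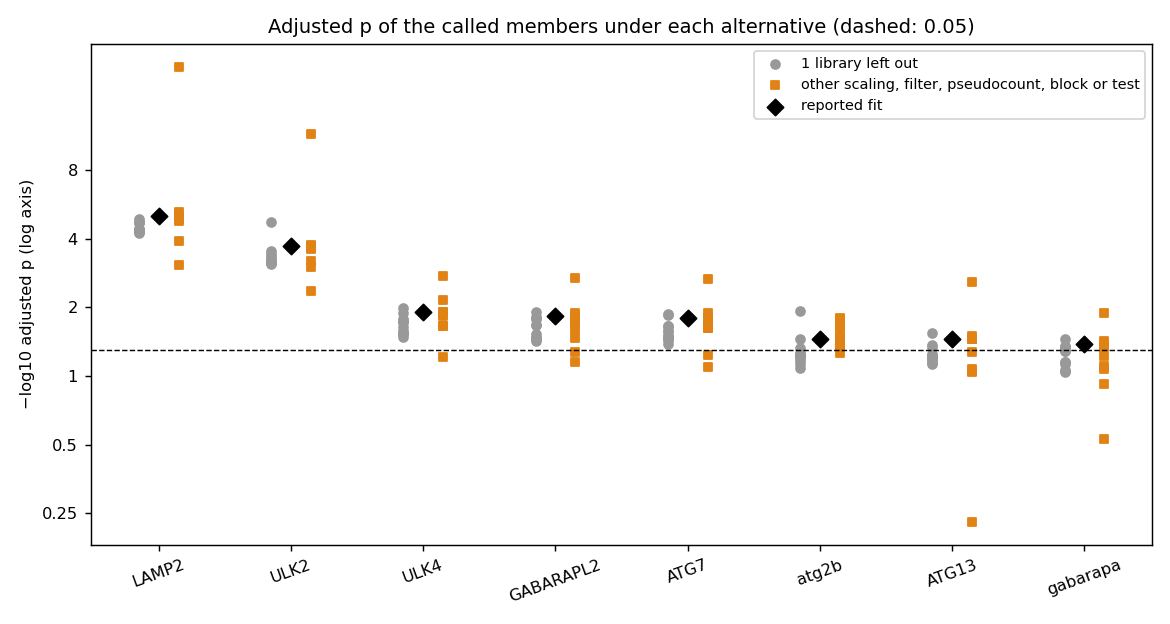
Adjusted p on a negative log10 scale (log axis) of the 8 autophagy machinery transcripts that passed, with black diamonds for the reported limma fit, grey circles for fits with 1 library left out and orange squares for the other scalings, filters, pseudocounts, block and tests; the dashed line marks an adjusted p of 0.05. Every point of LAMP2 and ULK2 lies above the line, whereas points of atg2b, ATG13, gabarapa, ATG7, GABARAPL2 and ULK4 lie on both sides of it.

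Other genes of the pathway, outside the machinery set, were read in 7 lists chosen by pathway role. The upstream kinases and their regulators held 3 higher and 3 lower of 25 tested genes (24%, against 17.5% of all tested genes, with a median of -0.01 on the log2 scale). DDIT4 (ENSDARG00000037618), whose product Redd1 restrains mTORC1, had 470, 590 and 629 normalised counts in GR-mutant brains, against 1787, 2227 and 2646 in wild-type brains. It fell by 1.96 on the log2 scale (SE 0.10, limma adjusted p = 3.51e-08), the lowest adjusted p in the 7 lists, with a wide gap between the genotypes. DEPTOR, which binds and inhibits mTOR complexes, fell by 0.43 on that scale. RICTOR (ENSDARG00000100867), a subunit of mTORC2, rose by 0.33, and in its copy ENSDARG00000002020, 4 GR-mutant brains lay above every wild-type brain. The gene sesn3, for a sestrin that restrains mTORC1, rose by 0.52. Of the other sestrins, SESN1 had 5 GR-mutant brains below every wild-type brain, and sesn2 had 2 above. The genotypes overlapped for both, and a difference between the sestrins was not tested.

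The class III PI3 kinase list held 3 higher and 2 lower of 15 tested genes (33.3%, against 17.5% of all tested genes, with a median of 0.09). PIK3R4 (ENSDARG00000060469), the regulatory subunit Vps15, rose by 0.30 on the log2 scale, with 1716 to 2071 normalised counts in GR-mutant and 1441 to 1732 in wild-type brains. MTMR14, a phosphoinositide phosphatase, rose by 0.26, and ZFYVE1, which marks sites where autophagosomes form, by 0.33. BCL2, whose product binds Beclin 1, fell by 0.27, while its paralog bcl2a did not pass (difference 0.40, limma adjusted p = 0.171).

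Selective autophagy receptors and mitophagy genes had the largest share of calls among the 7 lists, 12 of 30 (40%, against 17.5% of all tested genes): 2 higher and 10 lower, with a median of -0.03. PINK1 (ENSDARG00000001929), the kinase that marks damaged mitochondria, had 586, 704 and 1130 normalised counts in GR-mutant brains, against 979, 2511 and 3055 in wild-type brains. The genotypes overlapped, since GR-mutant 2 was highest among the mutants and wild-type 5 lowest among the wild types, and 5 GR-mutant brains lay below every wild-type brain. PINK1 fell by 1.55 on the log2 scale (SE 0.26, limma adjusted p = 0.00134).

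The mitophagy receptors bcl2l13 and FKBP8 fell without overlap. The first, bcl2l13 (ENSDARG00000062370), had 741, 772 and 886 normalised counts in GR-mutant brains, against 1297, 1840 and 2156 in wild-type brains, and fell by 1.1 on the log2 scale (SE 0.13, limma adjusted p = 6.66e-05). FKBP8 (ENSDARG00000001734) had 627, 734 and 798 in GR-mutant brains, against 903, 1054 and 1330 in wild-type brains, and fell by 0.56 (limma adjusted p = 0.00151). The ferritin receptor ncoa4 fell by 0.33 on that scale.

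In the list of fusion factors 4 of 23 tested genes passed (17.4%), near the 17.5% of all tested genes, and these 4 were lower. PLEKHM1 (ENSDARG00000099954), an adaptor between autophagosomes and late endosomes, had 567, 598 and 707 normalised counts in GR-mutant brains, against 674, 1289 and 1487 in wild-type brains, with wild-type 1 the lowest of the wild types. It fell by 0.87 on the log2 scale (SE 0.17, limma adjusted p = 0.00370). SNAP29, a SNARE of the fusion step, fell by 0.36, VPS41 of the HOPS tethering complex by 0.25 and RAB7A (ENSDARG00000020497) by 0.13, the last of which passed in 2 of the 12 fits that left out 1 library. The other RAB7A copies, ENSDARG00000087243 and ENSDARG00000021287, did not pass (limma adjusted p = 0.381 and 0.808). Nor did the other VPS genes of the list (VPS11, VPS16, VPS18, VPS33A and VPS39), with differences from -0.01 to 0.12.

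Lysosomal hydrolases and membrane proteins held 3 higher and 4 lower of 55 tested genes (12.7%, below the 17.5% of all tested genes). LAPTM4B (ENSDARG00000035870), a lysosomal membrane protein, had 4094, 4216 and 4408 normalised counts in GR-mutant brains, against 5760, 6661 and 7202 in wild-type brains, and fell by 0.63 on the log2 scale (SE 0.05, limma adjusted p = 5.19e-06). The protease gene ctsla fell by 0.56. The potassium and proton channel gene TMEM175 rose by 0.56, and GLA, alpha-galactosidase A, by 0.46. Among the 24 tested subunits of the vacuolar ATPase, 2 were higher and 3 lower (20.8%, against 17.5% of all tested genes), none by more than 0.39 on the log2 scale in either direction.

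Of the 16 tested transcription factors for autophagy and lysosomal genes, 3 passed (18.8%, against 17.5% of all tested genes), and these 3 were higher. FOXO4 (ENSDARG00000055792), a forkhead factor, had 1960, 2159 and 2184 normalised counts in GR-mutant brains, against 1599, 1724 and 1888 in wild-type brains, and rose by 0.30 on the log2 scale (SE 0.05, limma adjusted p = 0.00235). MITF (ENSDARG00000037833) and TFE3, relatives of Tfeb, rose by 0.82 and 0.47, but passed in 5 and 2 of the 12 fits that left out 1 library. The related gene tfe3b did not pass, with 3 GR-mutant brains above every wild-type brain.

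**Figure D4:**
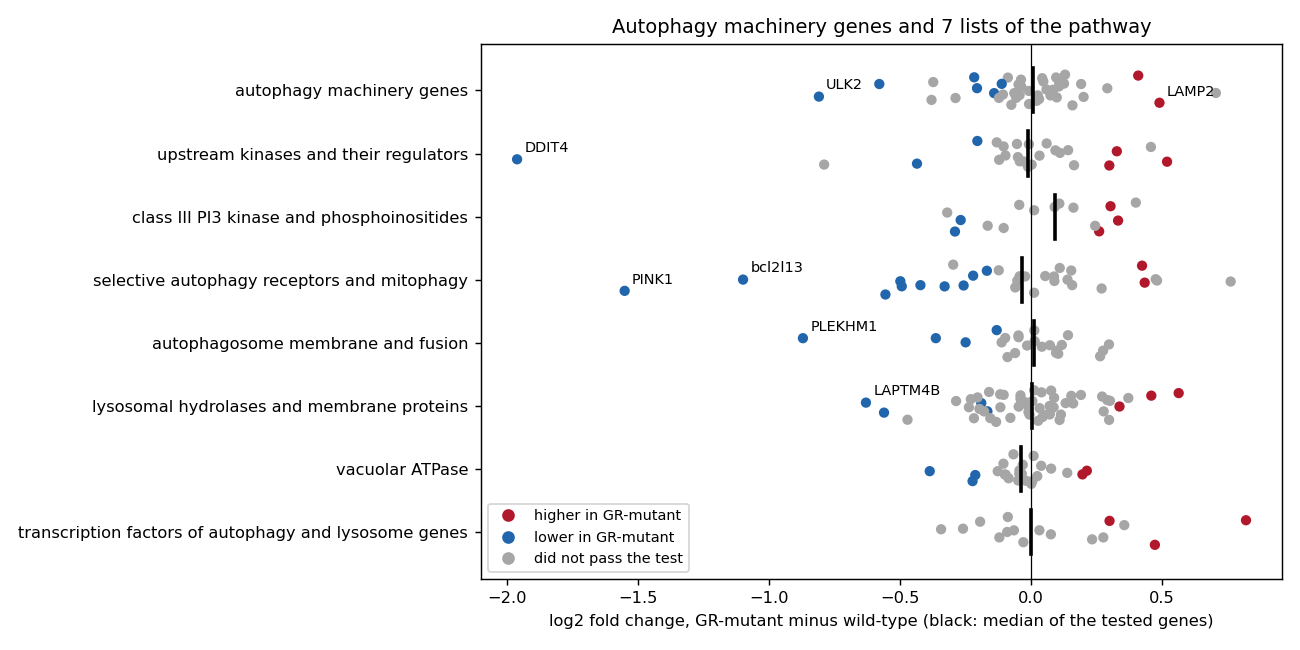
Log2 fold change, GR-mutant minus wild-type, of each tested gene among the autophagy machinery genes and in 7 lists of the pathway, with 1 point per gene, spread vertically for legibility, and a black line at the median of each list; red points passed higher, blue lower and grey did not pass. The medians lie between -0.04 and 0.09, while single genes such as DDIT4 (-1.96) and PINK1 (-1.55) lie far from them.

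Marker genes of brain cell types were summed in each library, as a measure of tissue composition beside these results. The 15 neuronal markers, all detected in every library, summed to 311185 to 332995 normalised counts in GR-mutant brains and 332786 to 360296 in wild-type brains. The 10 radial glia markers summed to 107459 to 127552 in GR-mutant brains and 126648 to 143686 in wild-type brains. Both sums lay lower in GR-mutant brains, with ranges that barely overlapped, and the normalised totals of these libraries were lower too. By limma, 1 of the 15 tested neuronal markers passed higher and 2 lower. Of the 9 tested radial glia markers, 1 passed higher and 2 lower. Among all tested genes, 7.59% passed higher and 9.92% lower. The part of these markers in the results above was not tested. Markers of oligodendrocytes, microglia, endothelial cells, erythrocytes, pituitary and skeletal muscle overlapped more widely, and no marker was at 0 in every library. Pituitary markers, summed, spanned 186 to 81528 in GR-mutant brains and 6498 to 45780 in wild-type brains, and skeletal muscle markers 152 to 17369 and 168 to 9575 in those genotypes.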

How the data were processed

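Whole brains of 6 GR-mutant and 6 wild-type males were sequenced. Per the labels and the study's methods, the authors trimmed reads (Trimmomatic), removed ribosomal RNA reads, used STAR for alignment to GRCz11 and gene counting, and normalised by the median of ratios in DESeq2. The deposited signal is therefore normalised counts. Whole reads were recovered from the steps between values, and 100% of values were whole within 0.001. The test was limma 3.58.1 (trend) in R 4.3.3 on log2(value + 1), for genes at 10 or more in 6 or more libraries, with Benjamini-Hochberg adjustment. edgeR 4.0.16 and DESeq2 1.42.0 on recovered reads, other pseudocounts, filters and scalings, the replicate number as a block, and leaving out each library were alternatives. The limma fit was tested on simulated data.

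Symbols came from a name table, which gave 29201 of 32520 IDs a symbol. The gene set is defined by name, but it, the lists and the tests were chosen with earlier results of these data known. Values were given for every gene that passed, its paralogs, the 3 genes with the highest mean, and SQSTM1, MAP1LC3B, BECN1, ULK1 and TFEB paralogs, and for up to 4 called genes of each list with the smallest p. A paralog letter in the pathway and marker lists was read as a to d. No protein or promoter sequences were used here. Replicates were separate fish.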

Additional observations from a re-analysis of the deposited data

Results flagged for a closer look

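Among 84 groups of 6 libraries, 2 held a library far from the rest by Dixon's test, and chance alone places about 1 in 20 groups there. ATG4D, an Atg4 protease gene, had 1748 normalised counts in GR-mutant 6, against 1493 to 1583 in the other GR-mutant brains. ATG101 had 1221 normalised counts in GR-mutant 4, against 1044 to 1104 in the other GR-mutant brains. Neither gene passed the test between genotypes.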

How the results depend on the processing

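Of all tested genes, 1527 passed higher and 1996 passed lower in the GR-mutant. Equal totals gave 3023 higher and 1312 lower, and the replicate number as a block gave 976 higher. Of the autophagy machinery genes, 2 were higher and 6 lower. Without the filter 1 was higher, beside 4.77% of all genes in that fit. At equal totals 8 were higher and 2 lower, beside 15% and 6.52% of all tested genes. With the block 1 was lower, beside 6.78% of all tested genes. Leaving out 1 library gave 1 to 3 higher and 4 to 7 lower, with 1 higher (LAMP2) without GR-mutant 1, 3 or 5 or wild-type 1, 2, 4 or 5. In those fits 1040 to 1506 of all tested genes passed higher and 1497 to 1979 lower. Fusion factors numbered 4, and 7 at equal totals, where the share of all tested genes rose from 17.5% to 21.6%. With the block, the class III PI3 kinase list held 2 calls instead of 5 and the lysosomal list 3 instead of 7. Calls over all tested genes fell too, to 4.85% higher and 6.78% lower, from 7.59% and 9.92%. Transcription factors numbered 3, against 1 without the filter, 5 by DESeq2 and 1 to 3 with 1 library left out. The vacuolar ATPase held 5 calls, against 3 without the filter, with upper-quartile scaling, at equal totals or without the trend, 1 with the block and 2 to 4 with 1 library left out. Upper-quartile scaling gave 8.92% of all tested genes higher and 8.6% lower, and limma without the trend 7.05% and 8.88%. Without the filter 6.51% of all genes in that fit were lower. With DESeq2, 3 autophagy machinery genes were higher and 8 lower (9.73% and 12.2% of all tested genes), and with edgeR 2 and 6 (7.58% and 9.62%). Of 1164 values of 53 named genes under the alternatives, 1024 kept their direction and their side of the threshold, 117 lost and 14 gained a call, and 9 changed sign, all in genes that did not pass. At equal totals MAP1LC3B (0.0081), MAP1LC3A (0.040) and lamp1b (0.019) turned positive, and TFEB was -0.0018 with the block. With 1 library left out, MAP1LC3A ran between -0.080 and 0.0062 (positive without wild-type 1), LAMP1 between -0.0031 and 0.092 (negative without wild-type 1 at -0.0026 or wild-type 4), and SQSTM1 between -0.020 and 0.056 (negative without GR-mutant 2 or wild-type 1). The cause was not tested.

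Same-numbered libraries were not alike in the most variable genes, where their correlations ran between -0.287 and 0.139. Of the GR-mutant libraries with a same-numbered wild-type library, 0 were closest to it. Weak correlation in these genes cannot exclude that same-numbered fish were handled together. Wild-type 7 and GR-mutant 6 have no same-numbered partner, so in the block fit they do not inform the genotype difference. That fit thus compares fewer libraries, with fewer residual degrees of freedom. In the block fit ULK4, GABARAPL2, ATG7, ATG13 and gabarapa lost their calls, with limma adjusted p of 0.0619, 0.0524, 0.0586, 0.0910 and 0.119. These estimates kept their sign, with ATG7 at -0.25 against -0.22 in the reported fit and ULK4 at -0.54 against -0.58. Depth limits map1lc3c and atg4db, with at most 6 and 23 reads per library.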
